A study of Peromyscus maniculatus with 16 samples.

Results

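The liver enzymes that conjugate, hydrolyse or oxidise reactive compounds were examined in deer mice (*Peromyscus maniculatus*) as 6 gene families. These were the cytosolic and mitochondrial glutathione S-transferases (Gst), the microsomal glutathione S-transferases (Mgst), the sulfotransferases (Sult), the carboxylesterases (Ces), the alcohol dehydrogenases (Adh) and the aldehyde dehydrogenases (Aldh). Within these families members were chosen by gene symbol alone, as every line of the count table whose symbol began with one of these family names followed by its class letter and number. The choice of the families was made with earlier results of these data known. Of the 16910 genes in the table, 58 were members: 13 Gst, 3 Mgst, 8 Sult, 10 Ces, 4 Adh and 20 Aldh genes. No member found by this rule was named Gsta, Sult1a or Sult2a, and none was named Adh1, Gstm1 or Gstp1. Statements on a family therefore cover only its members found in the table.

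RNA of whole liver was sequenced from 16 animals of an outbred species, all 10 months old at the end of a feeding period of 28 weeks. The control group (C) held 6 males on chow, and the 10 animals given a high fat diet (HFD) with sucrose formed 5 NS animals, whose livers showed no steatosis on histology, and 5 S animals, whose livers did. The animals carried no transgene or deletion and came from 2 closed stocks, BW (subspecies bairdii, 13 animals) and SM2 (subspecies sonoriensis, derived from wild-caught founders, 3 animals). Each group held 1 SM2 male, named here C1, NS1 and S1, and the 3 females, S2, S4 and S5, were all BW animals of group S. The males of S were therefore S1 and S3, and sex could not be separated from steatosis in these females.

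Glutathione S-transferases join the tripeptide glutathione to electrophiles such as lipid peroxidation products, and the microsomal enzymes of a separate protein family do so at membranes. Sulfotransferases pass a sulfate group from an activated donor to phenols, steroids and hormones, and carboxylesterases split ester bonds of drugs and of stored lipids in the endoplasmic reticulum. Alcohol dehydrogenases and aldehyde dehydrogenases oxidise ethanol, retinol, amino acid intermediates and fatty aldehydes in successive steps, and hepatocytes are the main site of all these reactions in the liver.

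Total counts per animal ranged from 4640733 in S3 to 11349971 in C5. The 7 hepatocyte markers found in the table summed to 42879 to 54818 counts per 1000000 (CPM) in C, 42816 to 68324 in NS and 35037 to 52403 in S, and the 4 adipocyte markers had 3 counts or fewer in every animal. The 7 markers of stellate cells and fibroblasts summed to 2360 CPM in S3 and to at most 515 in any other animal. In S5 the 5 cholangiocyte markers reached 35.0 CPM against at most 18.6 elsewhere, the 5 Kupffer cell markers 596 against at most 390, and the 5 leukocyte markers 42.6 against at most 21.3. The 5 endothelial markers lay between 102 and 269 CPM, the pancreas markers reached 12.7 CPM in S1, and the intestine and kidney markers stayed at or below 0.93 CPM. Between S and C, 2 of the 7 hepatocyte markers were lower in S and 1 was higher at an edgeR adjusted p below 0.1. Of the 7 stellate cell and fibroblast markers 1 was lower and 1 higher, and 0 markers of the other lists passed that limit. Over all genes 5.36% were lower and 5.39% higher. How far these differences in cell content entered the results was not tested, and in whole liver fewer cells of a type and less RNA per cell cannot be told apart.

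All 58 members were accounted for. No read was counted in any animal for Sult6b1, Sult6b2, Sult1c1 and Ces5a, and Sult2b1, Sult1c2, Aldh3b2, Aldh3b3, Ces2f and Gstt4 had 3 counts or fewer in every animal. The other 48 members reached 0.5 CPM in at least 1 animal and were tested: 12 Gst, 3 Mgst, 3 Sult, 8 Ces, 4 Adh and 18 Aldh genes. The 3 Sult genes tested were measured at few reads, with 229 counts of Sult1b1 over all 16 animals, 22 of Sult1d1 and 29 of Sult5a1. The deposited counts carry no gene length, so levels are compared between animals and never between genes. Reads were counted where they mapped to 1 place only, so members with close copies, above all the Gstm, Gstt and Ces1 genes, may have lost or exchanged reads.

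As a sum, the members took 1.81 to 2.19% of all counts in C (mean 2.08%, SD 0.141, n = 6), 1.48 to 1.85% in NS (mean 1.68%, SD 0.133, n = 5) and 1.69 to 1.89% in S (mean 1.76%, SD 0.0889, n = 5). In C the lowest value belonged to the SM2 animal C1, and the 5 BW animals began at 2.07%, above every animal on HFD. The Gst genes alone took 0.274 to 0.401% of counts in C, 0.195 to 0.308% in NS and 0.220 to 0.286% in S. The Gst ranges of the 3 groups overlapped.

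The comparison of S with C asked which members differed in livers that had become steatotic on HFD. In steatotic livers, 5 glutathione transferase genes (Gstp3, Gstk1, Gstm2, Gstz1 and Mgst1), the alcohol dehydrogenases Adh4 and Adh7 and the aldehyde dehydrogenases Aldh7a1 and Aldh3a1 fell, and the carboxylesterase Ces4a rose. The falls were mostly of less than 2-fold, with log2 fold changes between -0.52 and -0.82 for 7 of these 9 genes. An adjusted p below 0.1 in edgeR's quasi-likelihood test was counted as passing the test, and a gene was called where it also differed by at least 2-fold. Of the 48 members, 10 passed (20.8%), while 10.8% of all 12639 genes tested did. Lower expression in S was found for 9 members (18.8%, against 5.36% of all genes) and higher expression for 1 (2.08%, against 5.39%). The median log2 fold change was -0.37 over the members and 0.10 over all genes, and 32 of 48 members lay below 0 (66.7%, against 42.1% of all genes). Only 3 members were called (6.25%, against 4.06%), Ces4a as higher (2.08%, against 3.09%) and Adh7 and Aldh3a1 as lower (4.17%, against 0.965%). The result of Aldh3a1 rested on the animal C5, without which its log2 fold change was -1.19 (edgeR adjusted p = 0.609). Adh7 had at most 26 counts and Ces4a at most 96 in any animal. At an unadjusted p below 0.05 there were 19 members (39.6%, against 23.8%), and for 6 members the C and S animals did not overlap (12.5%, against 4.19%).

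The count of 10 members depended on single animals. It was 5 without C4, 5 without C5, 3 without C6, 4 without S2, 4 without S3 and 6 without S4, and between 7 and 11 without any other animal. Gstp3, Gstk1 and Ces4a were the 3 members that passed whichever animal was left out. With sex as a covariate, or with the 13 males alone, 6 members passed, Gstp3, Gstk1, Mgst1 and Adh7 among them both times, and with the 13 BW animals alone 13 did. Shares over all genes are not given for these fits. Over the settings other than the removal of 1 animal, the log2 fold change of Gstk1 lay between -1.28 and -0.77. That of Gstp3 lay between -0.91 and -0.81, that of Mgst1 between -0.89 and -0.66 and that of Adh7 between -4.29 and -2.33. The lowest animal for Gstk1 was the SM2 male S1, at 147 CPM. Adh4, Aldh3a1, Aldh7a1, Ces4a, Gstm2 and Gstz1 passed in neither fit that took sex into account, in which the value of S rested on the males S1 and S3. With sex as a covariate the log2 fold changes of Adh4 (-0.48), Ces4a (3.04) and Gstm2 (-0.74) were close to those without it. That of Aldh3a1 was -6.69, and those of Aldh7a1 (-0.39) and Gstz1 (-0.44) were nearer to 0. For Aldh7a1 the SM2 male S1 had 1274 CPM, the BW male S3 811 and the females 613 to 782. For Gstz1 these values were 524, 276 and 224 to 284 CPM. Both genes passed in BW animals alone, and the part of stock in the fits with sex was not tested.

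**Figure D1:**
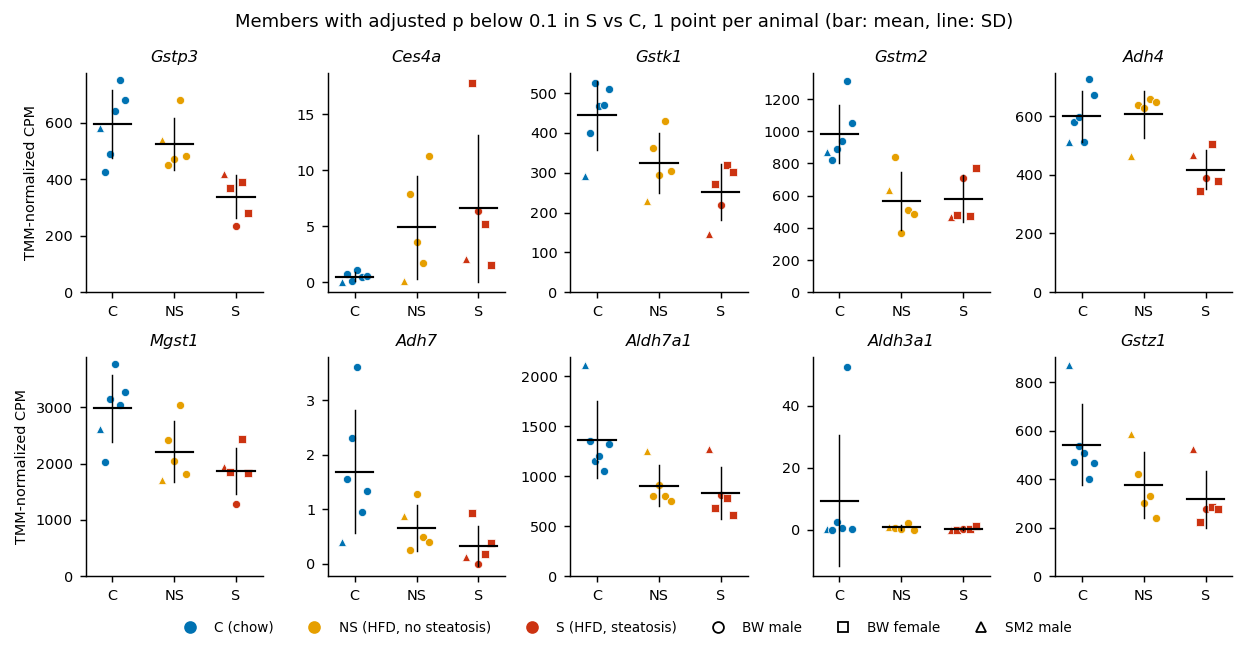
TMM-normalized CPM (linear axis) of the 10 members with an adjusted p below 0.1 in S vs C, with 1 point per animal in C (6), NS (5) and S (5), shapes for stock and sex, a bar for the mean and a line for the SD. Gstp3, Gstm2, Adh4 and Ces4a do not overlap between C and S, and in the Aldh3a1 panel C5 stands at 52.4 CPM above all other animals.

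Among the cytosolic and mitochondrial transferases, 4 of the 12 Gst genes tested fell in S vs C, 0 rose, and the family median was -0.67 on the log2 scale. Gstp3, a transferase of the pi class, was measured at 427, 612 and 749 CPM as the lowest, median and highest values of C. In S it was measured at 417, 370, 235, 391 and 280 CPM in S1 to S5, so that every S animal lay below every C animal. The fall was 0.81 on the log2 scale (SE 0.18, edgeR adjusted p = 0.0299).

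Gstk1, the kappa class enzyme of mitochondria and peroxisomes, lay between 291 and 524 CPM in C (median 470). The S animals S1 to S5 had 147, 271, 219, 320 and 301 CPM. The lowest C animal was C1 and the lowest S animal S1, both of the SM2 stock, and among BW animals alone the groups did not overlap. Gstk1 fell by 0.82 on the log2 scale (SE 0.21, edgeR adjusted p = 0.0439).

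Gstm2, the mu class gene with the most reads of the family, lay between 824 and 1313 CPM in C (median 915). In S1 to S5 it was measured at 467, 482, 709, 474 and 770 CPM, all below the C animals. It fell by 0.76 on the log2 scale (SE 0.21, edgeR adjusted p = 0.0534), and its adjusted p rose to at most 0.111 when C5, C6 or S2 was left out. The other mu class genes did not pass. Gstm3 was measured at 211, 2.22, 1.69, 3.14 and 50.1 CPM in S1 to S5 and at 3.66 to 20.9 in C, so that its log2 fold change of 2.66 (edgeR adjusted p = 0.145) rested on S1 and S5.

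Gstz1, the zeta class enzyme that isomerises maleylacetoacetate in tyrosine breakdown, lay between 401 and 869 CPM in C (median 490). In steatotic livers the values were 524, 224, 276, 284 and 277 CPM for S1 to S5. The highest animal of each group was its SM2 animal, and the 4 BW animals of S lay below all 6 C animals. Gstz1 fell by 0.77 on the log2 scale (SE 0.26, edgeR adjusted p = 0.0918), but the adjusted p reached 0.177 when 1 animal was left out and exceeded 0.1 without each of C1, C3, C4, C5, C6, NS2, NS3, S2, S3, S4 and S5.

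The microsomal family held 3 genes, of which 1 fell and 0 rose. Mgst1, a glutathione transferase and peroxidase of the endoplasmic reticulum and outer mitochondrial membrane, lay between 2031 and 3761 CPM in C (median 3097). The values of S1 to S5 were 1934, 1852, 1279, 2433 and 1832 CPM. Of the C animals, C2 alone lay within the range of S. Mgst1 fell by 0.67 on the log2 scale (SE 0.20, edgeR adjusted p = 0.0610), and the adjusted p reached 0.133 when C4, C5, C6, S2 or S3 was left out. Mgst3, another membrane-bound peroxidase, was measured at 183 to 288 CPM in C and at 137 to 214 in S (log2 fold change -0.43, SE 0.18, edgeR adjusted p = 0.163).

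Of the 3 sulfotransferases tested, 0 passed in either direction, and 0 had an unadjusted p below 0.05 in edgeR. In DESeq2 0 passed as well, with no adjusted p given for Sult1d1 and Sult5a1. Sult1b1, which conjugates phenols and thyroid hormones, lay between 0.289 and 6.66 CPM in C and between 0.122 and 1.67 in S (log2 fold change -1.34, SE 0.77, edgeR adjusted p = 0.300). Its counts ranged from 1 to 48, and the groups overlapped.

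Of the 8 carboxylesterases tested, 1 rose and 0 fell, although the family median was -0.55 on the log2 scale. Ces4a, a little studied family member, had 0 to 8 counts in the C animals, or 0 to 1.11 CPM (median 0.515). In S1 to S5 it had 17, 96, 34, 60 and 16 counts, or 2.07, 17.8, 6.38, 5.23 and 1.53 CPM. Every S animal lay above every C animal. Ces4a rose by 3.68 on the log2 scale (SE 0.89, edgeR adjusted p = 0.0360). Ces1d, a triacylglycerol hydrolase with the most reads of the family, lay between 2243 and 4763 CPM in C and between 2067 and 3513 in S (log2 fold change -0.50, SE 0.24, edgeR adjusted p = 0.213). Ces1a and Ces1g, chosen after their values were seen, did not overlap between C and S either, but their ranges nearly touched. Ces1a lay at 1.72 to 2.75 CPM in C and 0.366 to 1.717 in S, with at most 29 counts in any animal. Ces1g lay at 126.4 to 217 CPM in C and 87.5 to 126.2 in S. Neither gene passed (edgeR adjusted p = 0.354 and 0.170).

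All 4 alcohol dehydrogenases found in the table had log2 fold changes below 0, with a median of -0.86, and 2 of them fell. Adh4, the class II enzyme that oxidises ethanol and retinol, lay between 511 and 727 CPM in C (median 587). In S1 to S5 it was measured at 468, 346, 389, 506 and 380 CPM, all below the C animals. Adh4 fell by 0.52 on the log2 scale (SE 0.15, edgeR adjusted p = 0.0546), with an adjusted p of up to 0.114 when C5, C6, S2 or S3 was left out. Adh7, the class IV retinol dehydrogenase known from the stomach, had 4 to 26 counts in C and 1, 5, 0, 2 and 4 counts in S1 to S5. It fell by 2.39 on the log2 scale (SE 0.72, edgeR adjusted p = 0.0663), and without C3, C4, C6, S1, S3 or S4 the adjusted p was up to 0.151. Adh5, which removes formaldehyde bound to glutathione, was measured at 466 to 530 CPM in C and at 322 to 479 in S (log2 fold change -0.28, SE 0.13, edgeR adjusted p = 0.180) and was chosen after its values were seen.

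Of the 18 aldehyde dehydrogenases tested, 2 fell and 0 rose, and the family median of -0.04 on the log2 scale was close to 0. Aldh7a1, an enzyme of lysine breakdown, lay between 1054 and 2111 CPM in C (median 1262). In S1 to S5 it was measured at 1274, 684, 811, 782 and 613 CPM, so that all S animals but the SM2 animal S1 lay below C. It fell by 0.71 on the log2 scale (SE 0.22, edgeR adjusted p = 0.0683), and its adjusted p reached 0.133 when C1, C4, C6, S2, S3, S4 or S5 was left out. Aldh2, the mitochondrial enzyme that clears acetaldehyde and the Aldh gene with the most reads, was measured at 3549 to 5811 CPM in C and at 2854 to 3773 in S (log2 fold change -0.39, SE 0.15, edgeR adjusted p = 0.138). Aldh3a2, which oxidises fatty aldehydes, was measured at 247 to 432 CPM in C and at 345 to 826 in S (log2 fold change 0.55, SE 0.25, edgeR adjusted p = 0.183).

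Aldh3a1, an enzyme that ligands of the aryl hydrocarbon receptor are known to induce, was called on 1 animal. C5 had 552 counts, or 52.4 CPM, while the other 5 C animals had 0 to 18 counts and the S animals 0, 0, 1, 1 and 11. The log2 fold change was -4.91 (SE 1.64, edgeR adjusted p = 0.0888) with C5 and -1.19 (adjusted p = 0.609) without it. Leaving out C3, C4, C6, NS2, S1, S2, S3 or S4 brought the adjusted p to between 0.102 and 0.156.

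**Figure D2:**
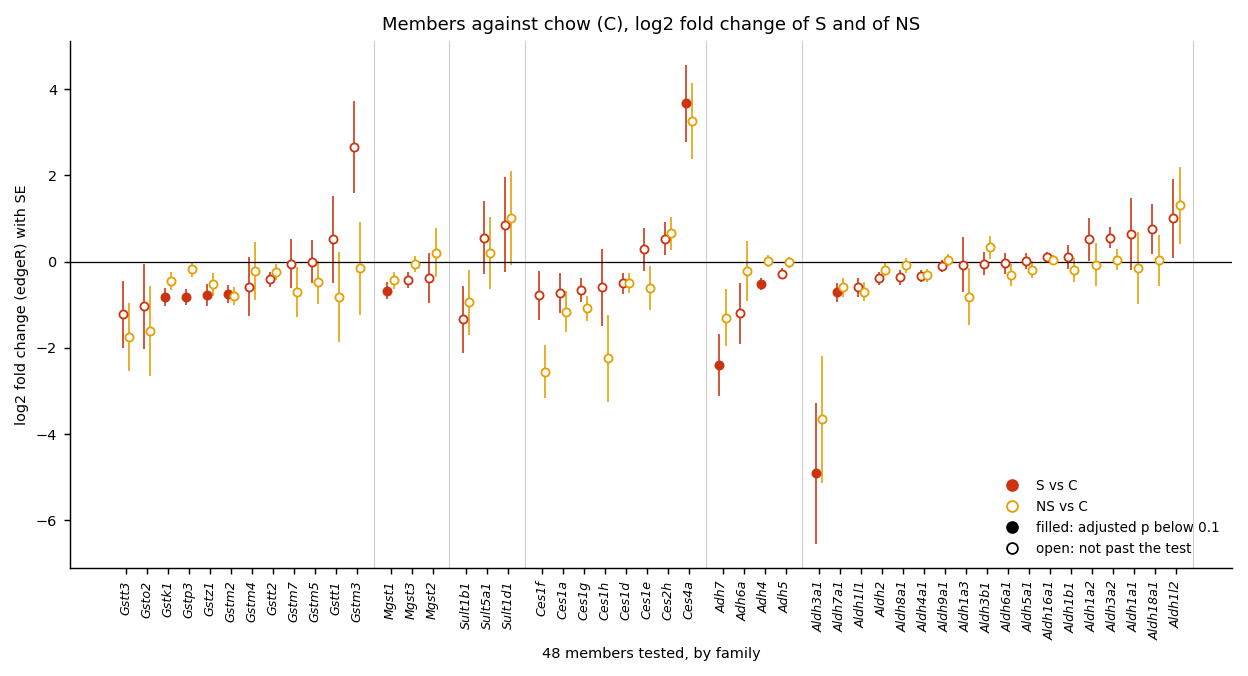
Log2 fold change against C (vertical axis, edgeR, bars are the SE) for the 48 members tested, ordered within each family by the S vs C value, with S vs C in red and NS vs C in orange. The 10 filled points passed the test in S vs C, and no NS vs C point is filled.

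The comparison of NS with C asked which members differed on HFD without steatosis. In edgeR 0 of 48 members passed the test, while 0.0791% of all genes did, and 0 were called (0.0712% of all genes). At an unadjusted p below 0.05 there were 13 members (27.1%, against 8.29% of all genes), of which 5 were carboxylesterases. The median log2 fold change was -0.23 over the members and 0.01 over all genes, and 36 of 48 lay below 0 (75%, against 48.8%). In DESeq2 4 members passed, which were Ces1f, Ces1g, Ces4a and Gstm2, and the first 3 of them were called. For DESeq2 and for the fit with stock below, the share of all genes is not given. Each group held 1 SM2 animal, and with stock as a covariate 3 members passed in edgeR, which were Ces1f, Ces4a and Aldh7a1. Aldh7a1 lay between 751 and 1251 CPM in NS, with the SM2 animal NS1 the highest, and had a log2 fold change of -0.61 in that fit (SE 0.12, edgeR adjusted p = 0.0574).

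The carboxylesterases gave the smallest p-values of this comparison. Ces1f, a Ces1 enzyme of the endoplasmic reticulum, lay between 6.20 and 51.4 CPM in C (median 30.5) and was measured at 1.26, 4.59, 8.89, 11.2 and 0.678 CPM in NS1 to NS5. All NS animals but NS3 and NS4 lay below all 6 C animals, and only the SM2 animal C1 reached down into their range. Its log2 fold change was -2.55 (SE 0.62, edgeR adjusted p = 0.223), with an adjusted p of 0.0284 when stock was a covariate, 0.0975 without NS4 and 0.00277 in DESeq2. Ces1g was measured at 48.7, 76.4, 79.5, 149 and 32.7 CPM in NS1 to NS5, with only NS4 inside the C range (log2 fold change -1.09, SE 0.29, edgeR adjusted p = 0.297). Without NS4 its log2 fold change was -1.47 (edgeR adjusted p = 0.0265).

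Ces4a was measured at 0.126, 7.91, 3.55, 1.70 and 11.3 CPM in NS1 to NS5. The 4 BW animals lay above all C animals and the SM2 animal NS1 lay within C (log2 fold change 3.27, SE 0.89, edgeR adjusted p = 0.315). The adjusted p was 0.0921 with stock as a covariate and 0.0219 in DESeq2. Gstm2 was measured at 634, 840, 368, 513 and 485 CPM in NS1 to NS5, with only NS2 inside the C range (log2 fold change -0.79, SE 0.21, edgeR adjusted p = 0.308). Aldh1l1, a folate enzyme, and Ces1a were the 2 members whose groups did not overlap (4.17% of members, against 0.989% of all genes), both were lower in NS, and both were named after their values were seen.

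Both comparisons with C share the C animals, so their values are set side by side without a test of likeness. Of the 10 members that passed in S vs C, 8 were lower in NS than in C, and 9 had the same sign in both comparisons. Gstm2 stood at -0.76 in S and -0.79 in NS on the log2 scale, and Ces4a at 3.68 and 3.27. Gstp3 stood at -0.81 in S and -0.18 in NS, and Adh4 at -0.52 in S and 0.02 in NS.

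The comparison of S with NS asked which members differed by steatosis on the same diet. In edgeR 0 of 48 members passed or were called, while 0.00791% of all genes did so, and 4 members had an unadjusted p below 0.05 (8.33%, against 10.9% of all genes). The median log2 fold change was 0.01 over the members and 0.04 over all genes, and 24 of 48 members lay below 0 (50%, against 46%). Adh4 was measured at 465, 637, 626, 657 and 649 CPM in NS1 to NS5, so that only the SM2 animal NS1 lay within the S range (log2 fold change -0.54, SE 0.15, edgeR adjusted p = 0.292). In DESeq2 Adh4 alone passed, with an adjusted p of 0.0488, and 0 members were called. Gstp3 was measured at 539, 451, 472, 680 and 480 CPM in NS1 to NS5, all above the S animals (log2 fold change -0.63, SE 0.19, edgeR adjusted p = 0.305). It was the 1 member whose groups did not overlap (2.08%, against 1.18% of all genes). Ces1f (log2 fold change 1.77, SE 0.62, edgeR adjusted p = 0.356) and Gstm3 (log2 fold change 2.81, SE 1.15, edgeR adjusted p = 0.408) had the other p-values below 0.05.

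The labels place 1 SM2 animal in each group, so the stocks were compared with the group as a covariate. In SM2 livers the mu class genes Gstm3, Gstm4, Gstm5 and Gstm7 and the carboxylesterase Ces2h were at least 2-fold higher, and the carboxylesterases Ces1a, Ces1e, Ces1f and Ces4a, the aldehyde dehydrogenases Aldh1a1 and Aldh1a2, Adh6a and Gstt3 were at least 2-fold lower. Of the 48 members, 21 passed the test (43.8%, against 21.8% of all genes), 7 of them higher (14.6%, against 11.9%) and 14 lower (29.2%, against 9.85%). The 14 called members made up 29.2%, against 10.8% of all genes, with 5 higher (10.4%, against 5.91%) and 9 lower (18.8%, against 4.93%). In all, 30 members lay below 0 (62.5%, against 52.9%), and for 6 the stocks did not overlap (12.5%, against 6.81%), which were Gstm4, Gstm5, Gstm7, Ces1e, Aldh1a2 and, named after its values were seen, Aldh5a1. Only 3 SM2 animals were measured, and the 2 stocks also differ in subspecies and origin. Cell type markers moved with stock as well. In SM2 3 of the 5 endothelial markers tested passed as lower and 1 as higher (sums of 102 to 150 CPM, against 127 to 269 in BW), 2 of the 5 cholangiocyte markers passed as lower (4.79 to 9.14 CPM, against 6.25 to 35.0), and of the 5 Kupffer cell markers 2 passed as lower and 1 as higher (85.4 to 197 CPM, against 154 to 596). The 1 pancreas marker tested was higher (3.03 to 12.7 CPM as a sum, against 0.19 to 3.13), while 0 of 7 hepatocyte markers passed in edgeR. The part of these markers in the stock differences was not tested.

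Gstm4, a mu class transferase, was measured at 253, 188 and 136 CPM in C1, NS1 and S1 and between 24.2 and 44.0 in the 13 BW animals (median 34.0). The stocks did not overlap, and the log2 fold change was 2.53 (SE 0.12, edgeR adjusted p = 9.7e-10). Gstm7 was measured at 261, 184 and 384 CPM in the SM2 animals against 20.3 to 142 in BW (log2 fold change 1.87, SE 0.32, edgeR adjusted p = 0.000784). Gstm5 was measured at 126, 102 and 88.1 CPM against 13.7 to 73.2 in BW (log2 fold change 1.47, SE 0.33, edgeR adjusted p = 0.00679). Neither gene overlapped between the stocks.

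Gstm3 was measured at 20.9, 28.5 and 211 CPM in C1, NS1 and S1, while 12 of 13 BW animals lay at 9.39 CPM or below and S5 reached 50.1 (log2 fold change 3.20, SE 0.63, edgeR adjusted p = 0.00283). Gstm2, in contrast, had a log2 fold change of -0.12 between the stocks (SE 0.22, edgeR adjusted p = 0.762). The sum of the mu class genes other than Gstm2 was 503 to 820 CPM in SM2 and 69.6 to 259 in BW. With Gstm2 included it was 1137 to 1531 CPM in SM2 and 494 to 1494 in BW, and the stocks overlapped.

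**Figure D3:**
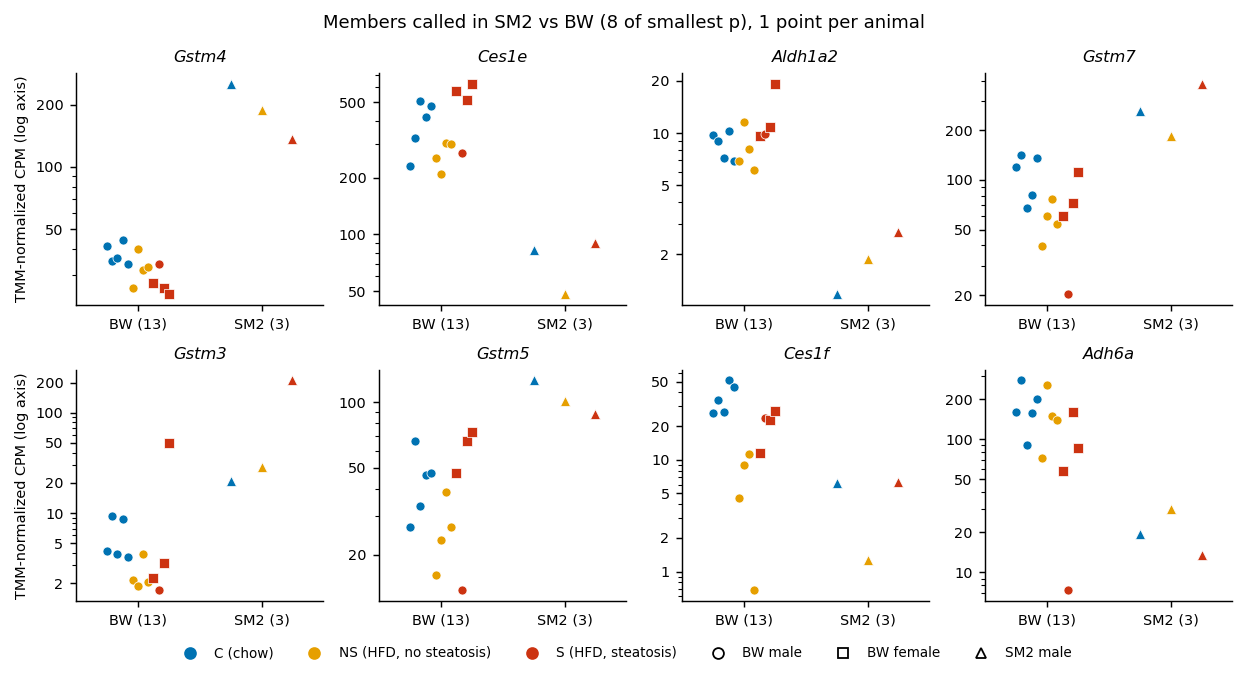
TMM-normalized CPM (log axis) of the 8 members with the smallest p among those called in SM2 vs BW, with 1 point per animal, 13 BW and 3 SM2, coloured by group. Gstm4, Gstm5, Gstm7, Ces1e and Aldh1a2 do not overlap between the stocks, while S5 reaches the SM2 values of Gstm3 and S3 lies below them for Adh6a.

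Ces1e, which is known to hold beta-glucuronidase in the endoplasmic reticulum, was measured at 82.7, 48.3 and 90.4 CPM in C1, NS1 and S1 and between 208 and 628 in BW (median 322). The log2 fold change was -2.39 (SE 0.28, edgeR adjusted p = 2.73e-05). Ces1f was measured at 6.20, 1.26 and 6.34 CPM in SM2 and between 0.678 and 51.4 in BW, where NS2 and NS5 lay below the highest of them (log2 fold change -2.19, SE 0.51, edgeR adjusted p = 0.00856). Ces4a had 0, 1 and 17 counts in the SM2 animals (log2 fold change -2.93, SE 0.89, edgeR adjusted p = 0.0336), and without NS1 its adjusted p was 0.217. Ces2h, chosen after its values were seen, was measured at 40.4, 145 and 107 CPM in C1, NS1 and S1 and between 26.6 and 69.4 in BW, so that C1 lay inside the BW range. Its log2 fold change of 1.05 (SE 0.29, edgeR adjusted p = 0.0231) did not pass without NS1 or without S1, with an adjusted p of up to 0.307.

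Adh6a, an alcohol dehydrogenase of class V, was measured at 19.5, 29.9 and 13.4 CPM in C1, NS1 and S1. In BW it was measured at 58.0 to 278 CPM in 12 animals and at 7.32 in S3, the BW male of S (log2 fold change -2.69, SE 0.63, edgeR adjusted p = 0.00860). Aldh1a2, which makes retinoic acid from retinaldehyde, was measured at 1.18, 1.89 and 2.68 CPM in SM2 and between 6.11 and 19.3 in BW, with S5 the highest (log2 fold change -2.37, SE 0.30, edgeR adjusted p = 6.75e-05). Aldh1a1, the cytosolic enzyme for the same step, was chosen after its values were seen. It was measured at 35.3, 15.5 and 142 CPM in SM2 against 52.8 to 950 in BW (log2 fold change -2.39, SE 0.92, edgeR adjusted p = 0.0919) and did not pass in 9 of 16 fits that left out 1 animal, where its adjusted p reached 0.334.

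Of the 7 members that passed with less than a 2-fold difference, Gstz1 and Aldh7a1 were higher in SM2 and 5 were lower, which were Gstk1 and, named after their values were seen, Aldh3b1, Aldh5a1, Aldh3a2 and Aldh1l1. The log2 fold changes of these 4 Aldh genes were -0.93, -0.64, -0.74 and -0.54 (edgeR adjusted p = 0.00762, 0.00779, 0.0245 and 0.0856). Gstz1 was measured at 869, 587 and 524 CPM in C1, NS1 and S1, each above all BW animals of its own group (log2 fold change 0.90, SE 0.14, edgeR adjusted p = 0.000343). Aldh7a1 at 2111, 1251 and 1274 CPM was likewise above the BW animals of each group (log2 fold change 0.75, SE 0.12, edgeR adjusted p = 0.000487). Gstk1 at 291, 228 and 147 CPM lay below them (log2 fold change -0.74, SE 0.15, edgeR adjusted p = 0.00384). Gsto2, chosen after its values were seen, had 0 counts in all 3 SM2 animals and 0 to 6 counts in BW, so no fold is given for it. Gstt3 (log2 fold change -2.55, edgeR adjusted p = 0.0328) and Ces1a (log2 fold change -1.18, edgeR adjusted p = 0.0900), outside the rule for named members, were also called.

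The stock comparison rested on 3 animals, and 13 of the 21 members passed whichever animal was left out. The other 8 were Aldh1a1, Aldh1l1, Aldh3a2, Ces1a, Ces2h, Ces4a, Gsto2 and Gstt3. The count of called members was 14 with all animals, 9 without NS1 and 9 without S1.

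Females and males could be compared only within S, with 3 BW females against S1 and S3. In edgeR 0 of 48 members passed (0.396% of all genes) or were called (0.388%), and 6 had an unadjusted p below 0.05 (12.5%, against 11.2% of all genes). Adh6a was measured at 58.0, 161 and 86.5 CPM in the females S2, S4 and S5 and at 13.4 and 7.32 in the males S1 and S3. Its log2 fold change was 3.28 (SE 0.95, edgeR adjusted p = 0.202). It passed in DESeq2 (adjusted p = 0.0290) and without C1 (0.0961 in edgeR), but not with stock added, where the log2 fold change was 1.82 (edgeR adjusted p = 0.454). Among BW animals alone S3 was the 1 male of S, assumed to vary like the animals of the other groups, so the values there rest on that library. Adh6a (3.76), Gstm5 (2.15) and Gstm7 (1.98 on the log2 scale) passed in that fit (edgeR adjusted p = 0.0214, 0.0406 and 0.0406), while Gstm7 stood at -1.31 with S1 included. With stock added Gstm5 alone passed (edgeR adjusted p = 0.0864). For Adh6a, however, the BW males of C and NS lay between 72.7 and 278 CPM and overlapped the females. With sex as a covariate the S males were compared with NS males, and Adh6a had a log2 fold change of -3.63 (edgeR adjusted p = 0.0872).

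Animals of the same group differed widely in some members. The SD of log2 CPM within groups had a median of 0.587 over the 48 members and 0.456 over all genes, and it was at least 1 for 14 members (29.2%, against 7.83% of all genes). Within the 13 BW animals it was at least 1 for 8 members (16.7%, against 4.82%). Among genes with a mean of at least 10 CPM, the share over all 16 animals was 24.2% of 33 members and 2.65% of all genes. Within the 13 BW animals the shares at that level were 9.09% and 1.66%. At the other end, Adh5, Aldh16a1, Aldh9a1, Adh4, Aldh2 and Aldh4a1 had SDs between 0.164 and 0.222, and were listed after their values were seen.

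**Figure D4:**
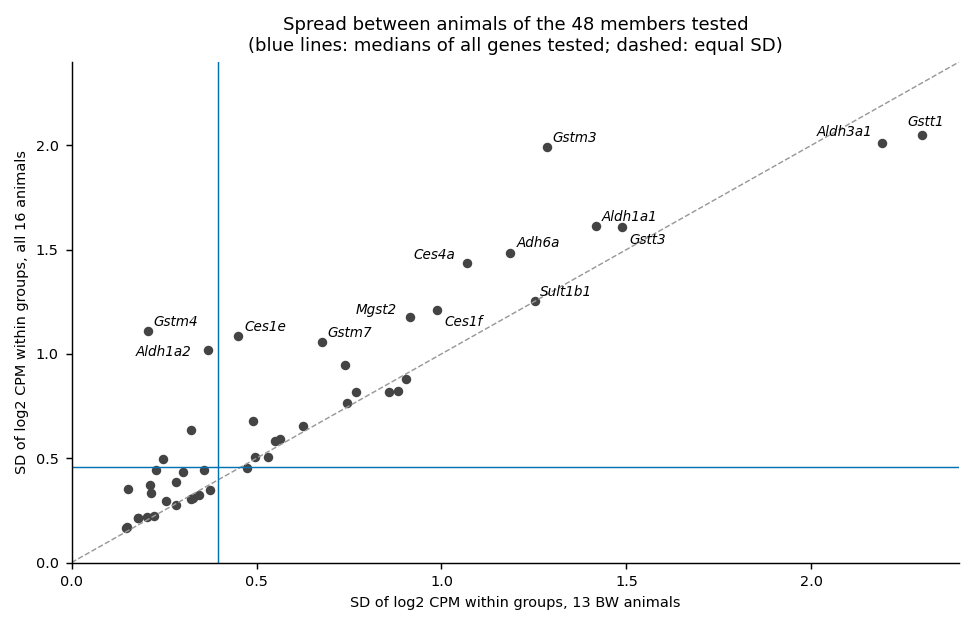
SD of log2 CPM within groups for each of the 48 members tested, over all 16 animals (vertical axis) against the 13 BW animals (horizontal axis), with blue lines at the medians of all genes tested, 0.456 and 0.395. Gstm4, Ces1e and Aldh1a2 vary little within BW, while Gstt1, Aldh3a1, Gstt3 and Aldh1a1 vary widely in both.

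For Gstm4, Ces1e and Aldh1a2 the SD was 1.11, 1.09 and 1.02 over all animals and 0.21, 0.45 and 0.37 within BW, so that they varied less within BW. The theta class gene Gstt3 remained variable within BW, with an SD of 1.49. In C2 to C6 it was measured at 1388, 831, 557, 664 and 45.7 CPM. Gstt3, Gstt1, Aldh1a1 and Mgst2 were singled out after their values were seen.

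Gstt1, another theta class gene, had 99, 204, 7, 5 and 3 counts in C2 to C6 and 55, 94, 0 and 38 in NS2 to NS5 (SD 2.30 within BW). Its high animals in C, C2 and C3, were also the animals with the most Gstt3, although C6 was low in both. The counting may divide reads between these close copies, which was not tested. The sum of the 4 Gstt genes was 1685, 1240, 893, 1043 and 290 CPM in C2 to C6. Aldh1a1 was measured at 540 and 440 CPM in C4 and C5 and at 52.8 to 64.9 in the other BW animals of C, and S3 reached 950 CPM. Mgst2, whose enzyme can make leukotriene C4, was measured at 13.7 and 22.8 CPM in C1 and C2 and at 85.6 to 134 in C3 to C6. In S it was measured at 166 CPM in S1 and at 25.2 to 46.9 in the 4 BW animals.

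**Figure D5:**
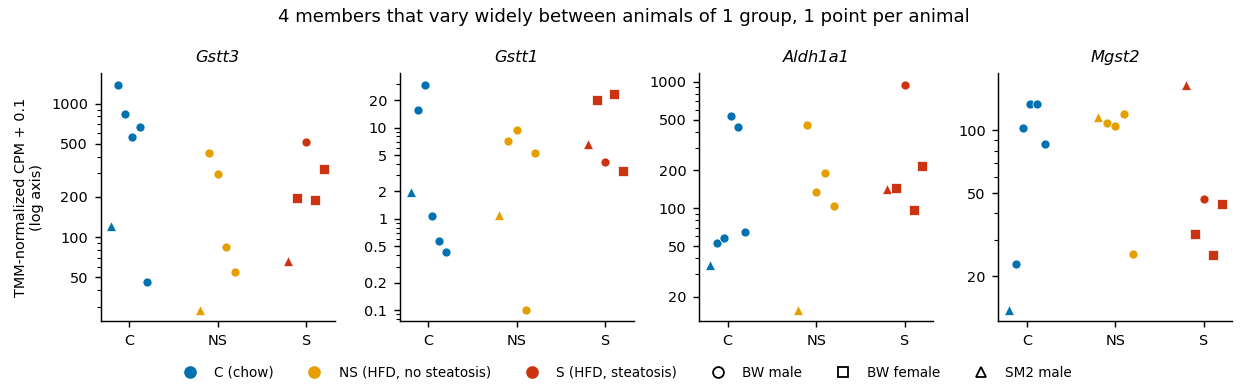
TMM-normalized CPM plus 0.1 (log axis) of Gstt3, Gstt1, Aldh1a1 and Mgst2 in C, NS and S, with 1 point per animal and shapes for stock and sex. Each gene shows animals of 1 group far apart, such as 45.7 and 1388 CPM of Gstt3 in C.

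S3, the library with the lowest depth and the highest stellate cell marker sum, was the lowest of all 16 animals for 11 of 48 members (22.9%, against 13.2% of all genes). C5 was the highest for 8 members (16.7%, against 4.73%) and counted as the lowest for 0. The SM2 animals C1, NS1 and S1 were counted as lowest for 6, 7 and 7 members. These were 12.5%, 14.6% and 14.6% of members, against 12.485%, 10.966% and 7.176% of all genes. The same animals were highest for 6, 2 and 4 members (12.5%, 4.17% and 8.33%, against 7.43%, 11.7% and 9.05%). Where animals tied at 0 counts, a single animal was counted as lowest. C1 was so counted for Aldh1l2, Gsto2 and Sult1d1, and C5 also had 0 counts of Sult1d1.

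An index of coordination, Pc, was calculated here after its description in the study's methods, whose code was not used here, so details may differ. It is the correlation between a gene's correlations with every other gene in one group and the same list in another group, so that values below 0 mark an inverted pattern. It could be computed for 49 members on the counts as deposited. Against C, the median for S was 0.240 over members and 0.201 over all genes, and for NS it was 0.159 and 0.102. Between S and NS the medians were 0.226 and 0.174. Below the study's limit of -0.2 there were 2 members for NS against C (2.92% of all genes). There were 0 such members for S, either against C (2.6% of all genes) or against NS (3.53%). The 2, named after their values were seen, were Aldh8a1, an enzyme of tryptophan breakdown, at -0.30 and Adh7 at -0.22. On CPM by total count they stood at -0.01 and -0.06, and each Pc rests on correlations over 5 or 6 animals, with no test.

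Partner genes were taken from 6 lists, on glutathione, sulfate, export, xenobiotic sensing, other aldehyde, ketone and retinoid genes, and other hydrolases. Over all genes 5.39% rose and 5.36% fell in S vs C, with a median of 0.10 on the log2 scale. With sex as a covariate, a fit added after the data were seen, 8 of the 15 partner genes past the test still passed in edgeR, and Bche, Dhrs4, Nr1i3, Pnpla3, Por, Sord and, named after its values were seen, Hagh did not. In S vs C the list for glutathione synthesis and recycling had 1 gene higher and 3 lower of 20 tested (median -0.17 on the log2 scale). The catalytic and modifier subunits of glutamate-cysteine ligase, the rate-limiting enzyme of glutathione synthesis, moved in opposite directions. Gclc lay between 285 and 462 CPM in C and between 445 and 1280 in S, and rose by 1.09 on the log2 scale (SE 0.23, edgeR adjusted p = 0.0222). Gclm lay between 170 and 258 CPM in C and between 95.6 and 166 in S, and fell by 0.68 (SE 0.18, edgeR adjusted p = 0.0497). Chac2, which degrades glutathione, fell by 0.70 on the log2 scale (SE 0.22, edgeR adjusted p = 0.0744).

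Of 10 genes for sulfate donor supply and sulfatases 0 rose and 1 fell. This was Papss2, the synthase of the sulfate donor PAPS, at 436 to 804 CPM in C and 256 to 386 in S, without overlap (log2 fold change -1.07, SE 0.18, edgeR adjusted p = 0.0125). Of 12 export genes 0 rose and 1 fell, the efflux pump gene Abcb1a (log2 fold change -0.58, SE 0.20, edgeR adjusted p = 0.0962). Of 26 other aldehyde, ketone and retinoid genes 1 rose and 2 fell. They were the retinoid dehydrogenase gene Dhrs4 (log2 fold change 0.81, edgeR adjusted p = 0.0628, 406 to 434 CPM in the 3 females but 203 and 291 in the S males, inside the range of C at 129 to 297), the retinol carrier gene Rbp4 (-0.90, edgeR adjusted p = 0.0157) and the sorbitol dehydrogenase gene Sord (-0.38, edgeR adjusted p = 0.0885).

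Of 16 other hydrolases 3 rose and 0 fell. They were Abhd2 (log2 fold change 1.73, edgeR adjusted p = 0.0485), the lipid droplet protein gene Pnpla3 (1.98, edgeR adjusted p = 0.0782) and the cholinesterase gene Bche (1.95, edgeR adjusted p = 0.0991). Of 19 xenobiotic sensing genes 1 rose and 2 fell. Nfe2l2, which encodes the oxidative stress factor NRF2, rose by 0.56 on the log2 scale (SE 0.16, edgeR adjusted p = 0.0590). Nr1i3, the receptor CAR known to induce many of these families, fell by 0.93 (SE 0.29, edgeR adjusted p = 0.0729), and Por, the electron donor of cytochromes P450, fell by 1.13 (SE 0.37, edgeR adjusted p = 0.0836). Of the 103 genes of these lists that were tested, 0 passed in edgeR in the other comparisons, NS vs C or S vs NS. At an unadjusted p below 0.05 in edgeR there were 9 and 13, against 8.29% and 10.9% of all genes. In DESeq2 Abhd2 and Gclm passed in NS vs C, and Bche, Papss2 and Rbp4 in S vs NS.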

How the data were processed

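Per the labels and the study's methods, liver RNA of 16 animals was sequenced in paired ends from a strand-specific library. The authors aligned it with STAR 2.7.2 to the HU_Pman_2.1 assembly, and featureCounts assigned the reads that mapped to 1 place. They deposited raw counts per gene symbol, without normalization. The strand setting of the counting and the conversion to symbols are not given in the sources used here. All columns were matched to animals by their labels (0 unmatched). Within groups no pair of animals agreed within counting noise (lowest chi-square per degree of freedom 23.56), so each animal was 1 replicate.

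Counts were tested in R 4.3.3 by edgeR 4.0.16, loaded with limma 3.58.1, using the quasi-likelihood test, TMM factors and Benjamini-Hochberg adjustment over the 12639 genes that reached 0.5 CPM in any animal. The model held group for all 16 animals, plus stock or sex for those comparisons. The limits were an adjusted p of 0.1 and, for calls, a fold of 2. Levels are TMM-normalized CPM, and the SE is the size of the log2 fold change divided by the square root of F. Pc used Python 3.11.15, numpy 2.4.6 and pandas 2.3.3, and matplotlib 3.10.9 drew the figures. Scripts were tested on simulated data. As alternatives, DESeq2 1.42.0, RLE factors, other filters and limits, covariates, subsets of animals and the removal of each animal were tried. Total counts of 4640733 to 11349971 per animal leave genes with few reads imprecise.

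The members and all gene lists were chosen with earlier results of these data known. Members were named if they passed in a group comparison, if they were among the 8 of smallest p called between stocks or sexes, or if they had the most reads of their family or its smallest p for S against C or NS. Partner genes were named if they were among the 3 of smallest p per list that passed in edgeR. Any other gene is said to be chosen after its values were seen. No coordinates or sequences are given, since the reference gene table used here was of another assembly.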

Additional observations from a re-analysis of the deposited data

Results flagged for a closer look

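Of 69 sets of animals, each the values of 1 of the 23 named members in 1 group, 12 held an animal far from the rest by Dixon's criterion, where chance gives about 1 in 20. All 12 such animals were the SM2 animal of their group, but 8 of the 23 members were named because they were called between stocks, and 7 of the 12 sets came from those 8, so a number above chance and its place in SM2 animals were partly fixed by how members were named. Gstm4 was high in C1 (253 CPM), NS1 (188 CPM) and S1 (136 CPM). Gstz1 was high in C1 (869 CPM) and S1 (524 CPM), Aldh7a1 in C1 (2111 CPM) and Gstm3 in NS1 (28.5 CPM). Low values were found for Ces1e (48.3 CPM) and Adh4 (465 CPM) in NS1, for Ces1f (6.20 CPM) and Aldh1a2 (1.18 CPM) in C1, and for Sult1b1 (0.122 CPM, 1 count) in S1. The cause was not tested.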

How the results depend on the processing

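The counts of members past an adjusted p of 0.1 under each alternative were added after the data were seen. Shares over all genes are not given for the alternatives, so these counts cannot be set against them. In S vs C 3 members were called, between 1 and 3 when 1 animal was left out (1 without C3, C4, C6, S3 or S4), 1 at an adjusted p of 0.05 and 10 without a minimum fold. The count past the test went from 10 to 6 with sex as a covariate or males alone, and to 3 to 11 with 1 animal left out. Of the 10, only Gstp3, Gstk1, Mgst1 and Adh7 were among the 6 in each of those 2 fits. In NS vs C, 0 called became 3 in DESeq2, 2 with stock as a covariate and 0 to 2 with 1 animal left out, and 0 past the test became 4, 3 and 0 to 2. In S vs NS, 0 called became 1 with sex as a covariate, and 0 past the test became 1 there and 1 in DESeq2. The 14 calls between stocks were 9 to 14 with 1 animal left out (9 without NS1 or S1). Between sexes, 0 called or past the test became 1 in DESeq2, 1 with stock added, 3 in BW animals alone (Adh6a, Gstm5 and Gstm7, with S3 as the 1 male of S, assumed to vary like the other groups) and 0 to 1 with 1 animal left out. Partner genes past the test in S vs C went from 15 to 8 with sex as a covariate. Members with Pc below -0.2 went from 0, 2 and 0 (S against C, NS against C, S against NS) to 1, 1 and 2 on CPM by total count and to 1, 1 and 3 on TMM-normalized CPM, with 0 in BW animals alone in NS vs C, and ranges of 0 to 1, 0 to 3 and 0 to 2 with 1 animal left out. Other than where the limit or the animals changed, the cause was not tested. Under these alternatives 0 log2 fold changes of members that passed changed sign, and 60 of 249 values in S vs C and 55 of 481 between stocks no longer passed. Counting error weighs heavily on members with few reads. Among those with animals at 0 or 1 counts were the Sult genes, Adh7, Aldh3a1, Gsto2, Ces4a, Ces1a, Ces1h, Aldh1l2 and Aldh1a3.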
